A study of Mus musculus
Rattus norvegicus and Mus musculus and Rattus norvegicus with 95 samples.

Results

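Car6, Ramp2, Rhag, Igfbpl1, Gpx2 and Pcolce are 6 of the 13926 mouse-rat homologues measured here. The cells are AdESCs, allodiploid embryonic stem cells that carry a haploid mouse and a haploid rat genome together. The 6 genes were chosen by name, with their measured levels known, because mouse and rat embryonic stem cells (ESCs) differed widely in them and AdESCs lay in between; 5 were higher in rat and 1, Pcolce, was higher in mouse. All 6 are rows of both deposited tables, and all 6 passed the filter of a mean of 1 FPKM in both. FPKM is a count of sequenced fragments scaled for transcript length and library size.

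The bulk table holds 8 libraries of cells labelled as G0/G1 stage, 1 per line. AdESCs are represented by MR1-1, MR2-1, RM1-1 and RM2-1, rat ESCs by DA25 and DA53, and mouse ESCs by F145 and F146. The single-cell table holds 87 cells captured on a C1 chip, in 11 samples of 1 cell type from 1 AdESC line. Undifferentiated AdESCs gave 24 cells: 6 of MR1-1, 8 of MR2-1, 4 of RM1-1 and 6 of RM2-1. Differentiated derivatives gave 63 cells: embryoid bodies (EBs, aggregates of differentiating stem cells) of MR2-1 (12 cells) and RM1-1 (5), testis somatic cells of RM1-1 from a mouse chimaera (4) and of RM2-1 from a rat chimaera (20), fibroblasts of MR1-1 (10) and neurons of RM1-1 (8) from mouse chimaeras, and lung cells of RM2-1 from a rat chimaera (4). No label describes a transgene, a mutation or a drug in these groups, and the labels do not spell out what RM and MR stand for. Each line is 1 line and no label tells of separate cultures, so every spread below is a spread between lines or between samples, which may be partly technical.

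These genes encode proteins of unlike function, and all but Rhag and Ramp2 encode enzymes or secreted proteins. Car6 encodes a secreted carbonic anhydrase known from saliva, which interconverts carbon dioxide and bicarbonate. Ramp2 encodes a membrane partner of the calcitonin receptor-like receptor, with which it makes a receptor for the vessel hormone adrenomedullin. Rhag encodes the Rh-associated glycoprotein of the red cell membrane, a channel for ammonia. Igfbpl1 encodes a secreted protein related to the insulin-like growth factor (IGF) binding proteins. Gpx2 encodes a glutathione peroxidase of epithelia, best known from the gut, which reduces hydroperoxides. Pcolce encodes a secreted helper of the protease that trims the C-terminal propeptide from fibrillar procollagens, a task of fibroblasts and other matrix-making cells. In a cell that holds the genomes of 2 species, the level of a gene can follow the regulatory sequence of each copy or the factors that both copies share.

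In the mouse genome (GRCm38, GENCODE M21) all 6 are annotated as protein-coding genes. Car6 (ENSMUSG00000028972.11) lies on the minus strand at chr4:150187015-150201332 and Igfbpl1 (ENSMUSG00000035551.6) on the minus strand of the same chromosome at chr4:45809468-45826923. Rhag (ENSMUSG00000023926.8) lies on the plus strand at chr17:40811126-40840754. These 3 genes overlap no other annotated gene. Ramp2 (ENSMUSG00000001240.13), on the plus strand at chr11:101246028-101259546, overlaps Vps25 on the same strand. Gpx2 (ENSMUSG00000042808.8), on the minus strand at chr12:76792333-76795554, overlaps Fntb on the opposite strand. Pcolce (ENSMUSG00000029718.14), on the minus strand at chr5:137605103-137613784, overlaps Fbxo24 on the same strand and the antisense gene Gm36266. Whether counting used strand is not given in the sources used here, so reads of overlapping genes could be shared. Fntb ran the other way from Gpx2, at 32.2 and 17.8 FPKM in F145 and F146 and 7.53 and 10.3 in DA25 and DA53. Fbxo24 was at most 0.449 FPKM in every bulk library. Vps25 was not analysed here.

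Summed FPKM over the homologues ran from 312695 to 377664 in bulk libraries and from 213045 to 411555 in cells, with 7835 to 8770 and 3444 to 6246 genes at 1 FPKM or more. All 7 pluripotency markers measured were at 1 FPKM or more in every AdESC sample, and 1 to 3 of the 7 were in each differentiated sample. Markers of 2 differentiated samples went against their labels, and those of another were mixed. In the RM2-1 lung sample 0 of 9 lung epithelial markers reached 1 FPKM, with Sftpc and Epcam listed at 0, while 13 of 17 fibroblast markers and 4 of 6 Leydig cell markers did. In the RM1-1 testis sample 7 of 10 neuronal markers reached 1 FPKM, against 2 of 7 Sertoli and 1 of 6 Leydig markers. In the MR1-1 fibroblast sample 15 of 17 fibroblast markers and 7 of 11 endoderm markers reached 1 FPKM, and of its 10 cells 3 had the collagen gene Col1a1 at 10 FPKM or more and 6 had the epithelial gene Epcam there. These names are used below as the labels of samples, and the comparison of differentiated with AdESC samples is also given without these 3 samples.

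Car6 had the widest gap between the parents of the 5 genes with a level above 0 in both. Its level was 0.937 FPKM in F145 and 0.428 in F146, against 192 in DA25 and 199 in DA53. AdESC lines had 10.0 (MR1-1), 8.76 (MR2-1), 8.77 (RM1-1) and 15.7 FPKM (RM2-1). The 3 groups did not overlap, and the rat mean of 195 ± 4.97 FPKM (SD, n = 2) was 286 times the mouse mean of 0.683 ± 0.360 (n = 2). The AdESC mean of 10.8 ± 3.29 FPKM (n = 4) lay 15.8 times above the mouse mean and 18.0 times below the rat mean.

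Ramp2 kept a much larger share of its rat level. It stood at 0.478 and 0.822 FPKM in F145 and F146 and at 142 and 162 in DA25 and DA53, a ratio of means of 234. AdESC lines had 33.03 (MR1-1), 49.4 (MR2-1), 24.8 (RM1-1) and 44.2 FPKM (RM2-1), a mean of 37.9 ± 11.1 (SD, n = 4). The lines therefore differed by up to 1.99 times among themselves, and their mean stood closer to rat than to mouse on a log scale.

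Rhag was listed at 0 in both mouse lines, so no ratio between the parents is given. Its level was 26.8 FPKM in DA25 and 23.9 in DA53, and AdESC lines had 3.93 (MR1-1), 8.55 (MR2-1), 2.66 (RM1-1) and 7.16 (RM2-1). The mean of 5.57 ± 2.74 FPKM (SD, n = 4) was 4.55 times below the rat mean, and the 4 lines spread over 3.22 times, the widest spread of the 6 genes. Whether a gene model or its transcripts are missing cannot be read from a listed 0, so the 0 in mouse is a listing only. Of 5 erythroid markers measured, 0 reached 1 FPKM in either rat line or in any bulk AdESC line, and Gata1 was at most 0.524 and Slc4a1, the red cell anion exchanger, at most 0.632 FPKM in all bulk libraries.

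Igfbpl1 was the rat-higher gene in which the rat lines differed most from each other, with 26.4 FPKM in DA25 and 70.2 in DA53. Mouse lines had 0.468 (F145) and 0.293 FPKM (F146), and the ratio of parental means was 127. AdESC lines had 10.49 (MR1-1), 12.9 (MR2-1), 11.3 (RM1-1) and 5.77 FPKM (RM2-1). All 4 stood below both rat lines and above both mouse lines.

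Gpx2 was the most abundant of the 6 and had the narrowest gap, with expression in both species. It stood at 21.3 (F145) and 41.4 FPKM (F146) in mouse and at 436 (DA25) and 624.5 (DA53) in rat, a ratio of means of 16.9. AdESC lines had 126 (MR1-1), 175 (MR2-1), 109 (RM1-1) and 126 FPKM (RM2-1). Their mean of 134 ± 28.5 FPKM (SD, n = 4) was 4.27 times the mouse mean and 3.97 times below the rat mean, so the groups were almost evenly spaced on a log scale.

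Pcolce ran the other way. Mouse lines had 62.7 (F145) and 66.3 FPKM (F146) and rat lines 0.176 (DA25) and 0.777 (DA53), a mouse mean 135 times the rat mean. AdESC lines had 5.76 (MR1-1), 9.00 (MR2-1), 8.75 (RM1-1) and 8.73 FPKM (RM2-1). Their mean of 8.06 ± 1.54 FPKM (SD, n = 4) was 8.00 times below the mouse mean and 16.9 times above the rat mean.

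**Figure D1:**
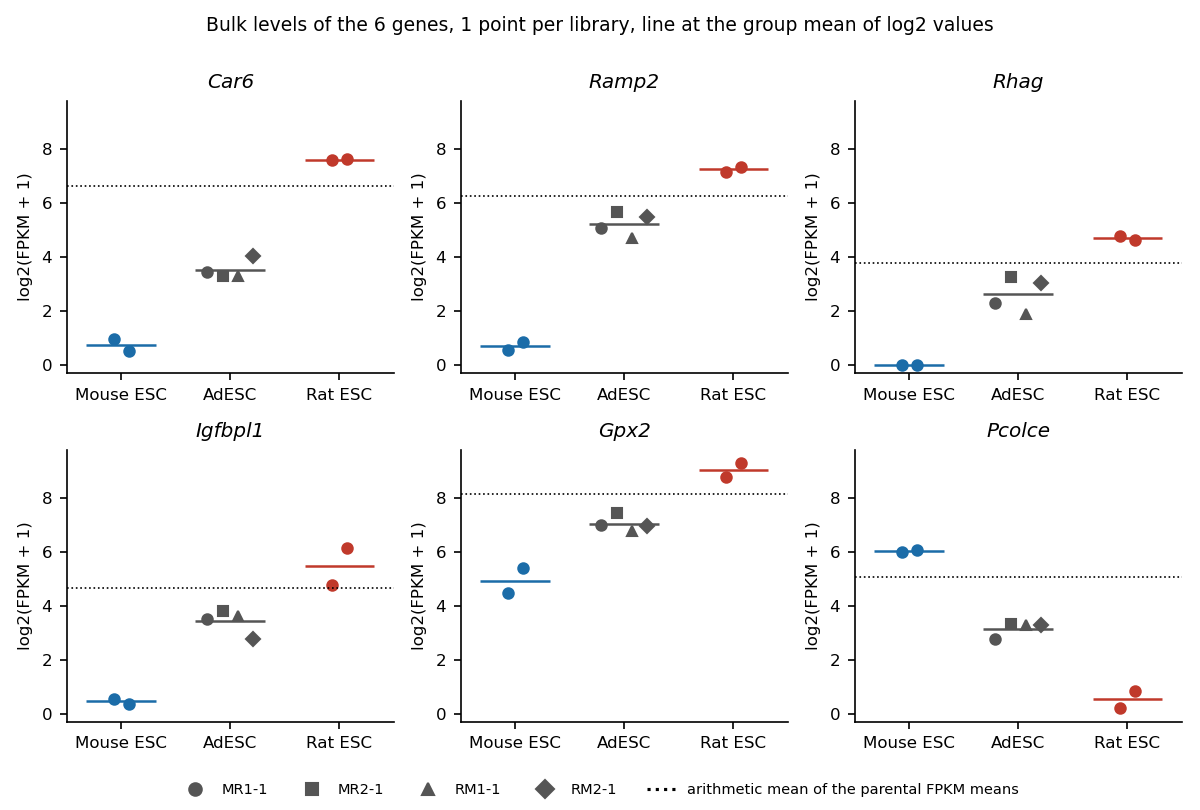
Level of each gene on a log2(FPKM + 1) scale in the 8 bulk libraries, 1 point per line, with a solid line at the group mean of the log2 values and a dotted line at the arithmetic mean of the parental FPKM means. In all 6 panels the 4 AdESC lines lie between the parental libraries and below the dotted line.

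Fibroblast markers varied between these libraries and were looked at beside Pcolce, since mouse ESCs are often grown on fibroblast feeders. Of 17 markers, 14 to 16 reached 1 FPKM in mouse lines, 3 to 4 in rat lines and 12 to 14 in AdESC lines. Their summed level was 3776 FPKM in F145 and 689 in F146, 369 to 694 in rat lines and 559 to 753 in AdESC lines. The fibronectin gene Fn1 had means of 499 FPKM in rat, 351 in mouse and 336 in AdESC lines, and made up most of the rat sums. Averaged as log2(FPKM + 1), the 17 markers stood at 5.87 in F145 and 3.65 in F146, 1.06 to 1.15 in rat and 2.53 to 3.51 in AdESC lines. Pcolce differed little between F145 and F146 although Col1a1 was 641 FPKM in the first and 89.7 in the second. Among AdESC lines, MR1-1 had both the lowest Pcolce and the lowest Col1a1 (8.69 FPKM, against 54.5 to 84.3 in the other 3). The part of feeder or other fibroblast RNA in the bulk level of Pcolce was not tested. In a bulk sample, fewer cells of a type and less RNA per cell cannot be told apart.

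In limma's fit of log2(FPKM + 1), all 6 genes passed an adjusted p of 0.05 in each of the 3 bulk contrasts, with signs that put AdESCs between the parents. Over all 8794 genes tested, 26.6% were called between rat and mouse ESCs, 3.89% between AdESCs and mouse ESCs and 9.7% between AdESCs and rat ESCs. By direction these were 14.1% higher and 12.6% lower in rat than in mouse, 2.71% above and 1.18% below the mouse level in AdESCs, and 5.79% above and 3.91% below the rat level. Upper-quartile scaling changed the split to 886 higher and 1499 lower in rat than in mouse (from 1239 and 1104) and to 752 above and 165 below the rat level in AdESCs (from 509 and 344). The genes were picked on these contrasts, so the calls describe the choice and are no evidence for it, and the AdESC contrasts share the AdESC libraries.

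A value of 1 for the AdESC level over the arithmetic mean of the parental means would place AdESCs at the plain average of the parents. All 6 genes fell short of it. The mean over the 4 lines was 0.110 ± 0.0336 for Car6 and 0.248 ± 0.0473 for Pcolce (SD, n = 4 lines). It was 0.416 ± 0.126 for Igfbpl1, 0.440 ± 0.216 for Rhag, 0.476 ± 0.101 for Gpx2 and 0.496 ± 0.145 for Ramp2. The last 4 genes overlapped in the range of their lines, 0.210 to 0.674, and their order is within that spread. Car6 (0.0895 to 0.160) lay below every line of the other 5 genes. Over the parental sum the fractions were 0.0552 for Car6, 0.124 for Pcolce, 0.208 for Igfbpl1, 0.220 for Rhag, 0.238 for Gpx2 and 0.248 for Ramp2.

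The choice of average matters for what intermediate means. Against the geometric parental mean, which is the midpoint on a log scale, the same AdESC levels stood at 0.937 for Car6, 1.04 for Gpx2, 1.45 for Pcolce, 2.36 for Igfbpl1 and 3.81 for Ramp2. On the log2(FPKM + 1) scale, counting the lower parent as 0 and the higher as 1, AdESCs lay at 0.41 for Car6, 0.48 for Pcolce, 0.51 for Gpx2, 0.58 for Rhag and Igfbpl1 and 0.70 for Ramp2. For Igfbpl1 the fraction of the arithmetic mean was 0.287 without DA25 and 0.756 without DA53. How the authors joined mouse and rat reads of a gene in AdESC libraries is not stated, and these fractions depend on it.

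Fractions below 1 were common among other genes that differed as widely between the parents. Of 118 genes at least 10-fold higher in rat, with a rat mean of at least 10 FPKM and no parental library at 0, 102 (86.4%) had an AdESC level below the arithmetic mean, with a median fraction of 0.578 (quartiles 0.383 and 0.872). Counted from the lowest fraction, Car6 was 3rd of these 118, Igfbpl1 38th, Gpx2 46th and Ramp2 51st. Of 177 genes higher in mouse by the same rule, 115 (64.97%) were below the arithmetic mean, with a median of 0.806 (quartiles 0.519 and 1.26), and Pcolce was 9th. Rhag is 1 of 7 genes listed at 0 in both mouse lines with a rat mean of at least 10 FPKM. Their fractions ran from 0.317 to 1.30 with a median of 0.917, and Rhag had the second lowest. Among 3496 genes within 2-fold between the parents the median was 0.946. These ranks describe genes picked for their levels and carry no test. A mean AdESC level between the parents was common too. It was found in 116 of the 118 rat-higher genes (98.3%). Among the 177 mouse-higher genes 168 had it (94.9%), and among the 3496 genes within 2-fold the share was 53.6%. An intermediate level was therefore not particular to the genes chosen here.

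**Figure D2:**
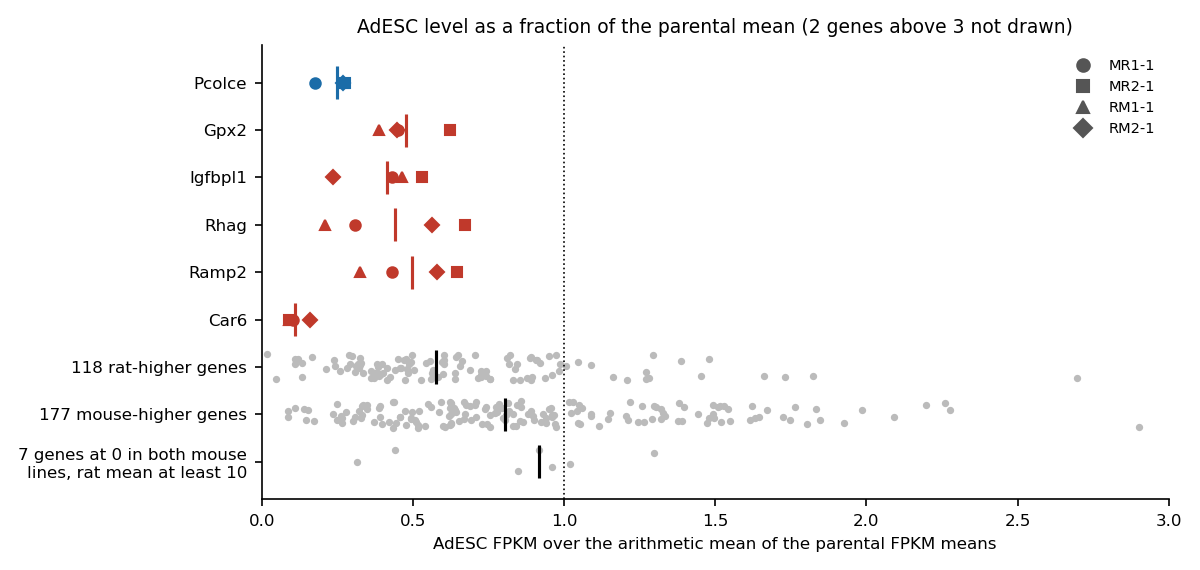
AdESC level over the arithmetic mean of the parental means. Coloured points are the 4 AdESC lines of each gene (red, higher in rat; blue, higher in mouse) with a bar at their mean; grey points are the genes of each class with a bar at the class median, 2 of them above 3 not drawn; the dotted line marks 1. All 24 coloured points lie below 1.

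MR and RM lines were compared with each other, a split that played no part in the choice of the genes. None of the 6 passed in limma's fit (adjusted p = 0.9998 for each), and 0 of the 8794 genes tested were called (0%), with 51 at an unadjusted p under 0.05. RM minus MR differences on the log2 scale were 0.30 ± 0.37 (SE, n = 2 lines each) for Car6, 0.24 ± 0.38 for Pcolce, -0.28 ± 0.38 for Ramp2, -0.33 ± 0.49 for Rhag, -0.34 ± 0.38 for Gpx2 and -0.47 ± 0.50 for Igfbpl1. Each was smaller than its standard error, and with these errors differences of that size were not detectable.

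In single AdESC cells the rat-higher genes were seen in most cells, apart from Rhag. Gpx2 was at 1 FPKM or more in 24 of 24 cells, Ramp2 in 23, Igfbpl1 in 20, Car6 in 19 and Rhag in 8. Of the 24 cells, 7 had all 5 rat-higher genes at that level, 12 had 4, 1 had 3 and 4 had 2. Pcolce was at 1 FPKM or more in 5 of 24 cells. FPKM carries no read counts, so no detection limit can be given for a cell in which a gene was listed at 0.

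Sample means of Gpx2 in AdESCs were 209 FPKM for MR1-1, 272 for MR2-1, 217 for RM1-1 and 320 for RM2-1. The cells ranged from 87.9 to 525 FPKM apart from 1 MR2-1 cell at 2.43. In that cell Car6 and Ramp2 were listed at 0, Epcam was at 0.238 and Nanog at 7.46 FPKM, while the pluripotency gene Pou5f1 stood at 74.1. Leaving that cell out, a choice made after seeing its values, changed no call on the 6 genes in the comparison of differentiated and AdESC samples.

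Car6 sample means were 19.2 (MR1-1), 23.5 (MR2-1), 16.9 (RM1-1) and 26.01 FPKM (RM2-1), with 5 of the 24 cells listed at 0 and the highest at 63.9. Ramp2 means were 25.96, 26.9, 21.5 and 36.9 FPKM in the same order, with single cells from 0 to 89.2. Igfbpl1 means were 6.07, 5.75, 2.86 and 7.18 FPKM, with no cell above 13.6. All 4 lines held cells with each of these 3 genes.

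Rhag was concentrated in few cells. Its sample means were 6.01 (MR1-1) and 11.7 FPKM (MR2-1), against 0.130 (RM1-1) and 0.542 (RM2-1). In MR2-1, 1 of the 8 cells held 88.7 FPKM, 95% of the sum over that sample. At 1 FPKM or more there were 4 of 6 MR1-1 and 3 of 8 MR2-1 cells, and 0 of 4 RM1-1 and 1 of 6 RM2-1 cells. In the bulk libraries RM2-1 (7.16 FPKM) stood above MR1-1 (3.93), so the gap between MR and RM seen in cells was not seen there, and it was not tested.

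Pcolce means in AdESC cells were 0.609 (MR1-1), 1.54 (MR2-1), 2.20 (RM1-1) and 0.558 FPKM (RM2-1), and the highest cell had 11.1. Fibroblast markers were low in the same cells, with 2 to 4 of 17 at 1 FPKM or more per sample and Col1a1 means from 0 to 1.12 FPKM.

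The 2 tables were normalised separately, so levels between them are set side by side without a test. The single-cell mean over the bulk level of the same line was 1.66 to 2.69 for Car6 and 1.56 to 2.55 for Gpx2, and 0.544 to 0.867 for Ramp2 and 0.253 to 1.25 for Igfbpl1. For Rhag it was 1.53 and 1.36 in MR1-1 and MR2-1 but 0.0490 and 0.0757 in RM1-1 and RM2-1. For Pcolce it was 0.0639 to 0.251 in all 4 lines. Over 7710 genes at 1 FPKM or more in every bulk AdESC library, the median of this ratio was 0.670 (quartiles 0.266 and 1.34).

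**Figure D3:**
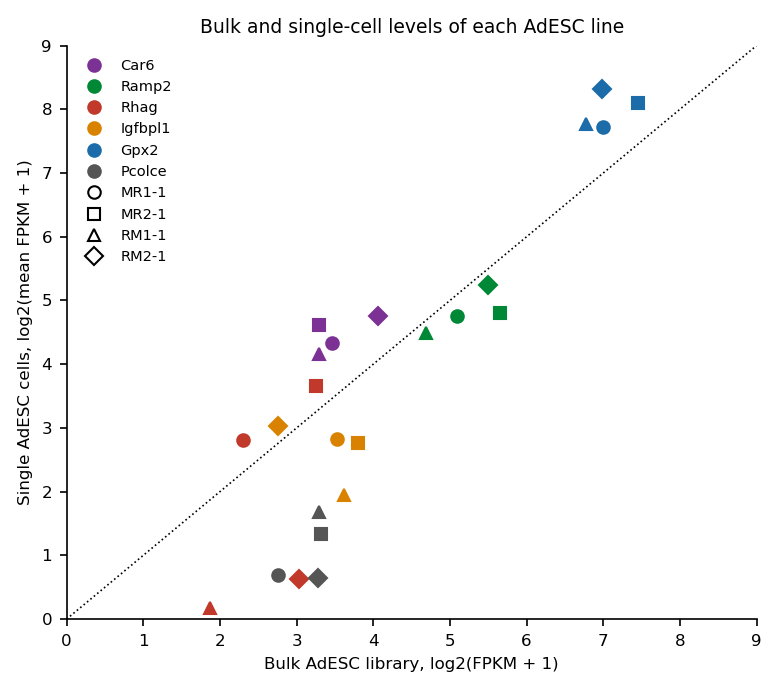
Level of each gene in the bulk library of an AdESC line (horizontal) and mean level over single cells of that line (vertical), both as log2(FPKM + 1), with colour for the gene, shape for the line and the dotted line at equality. Car6 and Gpx2 lie above the dotted line in all 4 lines, Pcolce and Ramp2 below it.

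Differentiated samples (n = 7) were compared with AdESC samples (n = 4), each entered as the mean FPKM of its cells. Car6 and Gpx2 fell and Pcolce rose, while Ramp2, Rhag and Igfbpl1 were lower on average without passing the threshold. Of the 8421 genes tested 15.9% were called (7.37% higher and 8.57% lower), beside 3 of the 6 genes here. Without the RM2-1 lung, RM1-1 testis and MR1-1 fibroblast samples 1168 genes were called in place of 1343. Car6 (-3.93, limma adjusted p = 0.000583) and Gpx2 (-6.48, 0.0020) still passed there, and Ramp2 (-1.98, 0.124), Igfbpl1 (-1.77, 0.149) and Rhag (0.130) did not. The AdESC samples enter every comparison with differentiated cells, so the comparisons below share their controls.

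Car6 means in differentiated samples were 0 in RM1-1 EBs, RM1-1 testis and RM1-1 neurons, 0.146 FPKM in MR2-1 EBs, 0.419 in RM2-1 lung, 0.553 in MR1-1 fibroblasts and 2.87 in RM2-1 testis. All 7 lay below the lowest AdESC sample at 16.9. How many of all genes tested separate in this way was not counted. The difference was -4.00 ± 0.49 on the log2 scale (SE, limma adjusted p = 5.37e-05), and it passed under each of the 19 alternative settings tried. Car6 had a mean of 0.570 FPKM over the 7 differentiated samples, under the filter, so it entered the main fit only through AdESC samples. The Car6 calls here and for EBs and testis below partly describe that choice and are no independent support. At 1 FPKM or more were 8 of 63 differentiated cells, and the highest, in RM2-1 testis, had 21.9 FPKM.

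Gpx2 was listed at 0 in every cell of 4 samples (RM1-1 EB, RM1-1 testis, RM2-1 testis and RM2-1 lung) and its mean was 0.0556 FPKM in RM1-1 neurons. It was 58.2 FPKM in MR2-1 EBs and 238 in MR1-1 fibroblasts, the latter within the AdESC range of 209 to 320. The difference was -5.99 ± 1.36 on the log2 scale (SE, limma adjusted p = 0.00803), larger without the MR1-1 fibroblast sample at -6.98 (adjusted p = 0.000246). Among the 10 cells of that sample Gpx2 ran from 0 to 1111 FPKM, and 6 had 10 FPKM or more. The highest cell held 46.7% of the sum, and without it the sample mean was 141 FPKM, below every AdESC sample. That cell also had Pou5f1 at 71.2 FPKM, which was listed at 0 in the other cells of the sample.

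Gpx2 was set beside Epcam, a surface protein of epithelial and pluripotent stem cells, in single cells. At 10 FPKM or more for both were 22 of 24 AdESC cells. Of the 63 differentiated cells 9 had both, 2 had Gpx2 alone, 8 had Epcam alone and 44 had neither, of which 40 were from the 5 samples without Gpx2 at that level. In MR2-1 EBs 5 cells had both, 5 Epcam alone and 2 neither. In MR1-1 fibroblasts 4 had both, 2 Gpx2 alone, 2 Epcam alone and 2 neither. These are the samples in which 7 of 11 endoderm markers reached 1 FPKM. In the 5 differentiated samples where Gpx2 was at or near 0, the sample mean of Epcam was at most 6.15 FPKM.

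Pcolce means were 0 FPKM in RM1-1 neurons, 3.11 in RM1-1 testis, 28.4 in MR2-1 EBs, 31.4 in MR1-1 fibroblasts, 85.6 in RM1-1 EBs, 125 in RM2-1 lung and 218 in RM2-1 testis. The neuron sample lay below all AdESC samples and the other 6 above them. The difference was 3.65 ± 1.15 on the log2 scale (SE, limma adjusted p = 0.0427). This call was lost under 14 of 19 alternative settings, in which the difference stayed positive, and adjusted p over the 19 ran from 0.0029 to 0.140. Without the lung, RM1-1 testis and fibroblast samples it was 3.69 (adjusted p = 0.0697).

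Pcolce was set beside the collagen gene Col1a1 in single cells. In the RM2-1 testis sample Pcolce was at 10 FPKM or more in 19 of 20 cells, up to 655 FPKM, and Col1a1 in 20 of 20. In MR2-1 EBs, 1 of 12 cells held 338 FPKM, 99% of the sample's sum, and it was also the only cell of that sample with Col1a1 above 100 FPKM (470). In MR1-1 fibroblasts the same 3 of 10 cells had both genes at 10 FPKM or more. In RM1-1 EBs Pcolce stood at 67.1 to 153 FPKM in 4 of 5 cells, with Col1a1 at 10 FPKM or more in 1 of these 4. In RM2-1 lung 2 cells had both at that level, 1 Pcolce alone and 1 Col1a1 alone. In RM1-1 testis 1 cell had Pcolce alone. Over the 63 differentiated cells 26 had both, 5 Pcolce alone, 2 Col1a1 alone and 30 neither. Of the 26, 19 were from RM2-1 testis, where every cell had Col1a1 at that level, so the pooled count rests mostly on that sample.

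**Figure D4:**
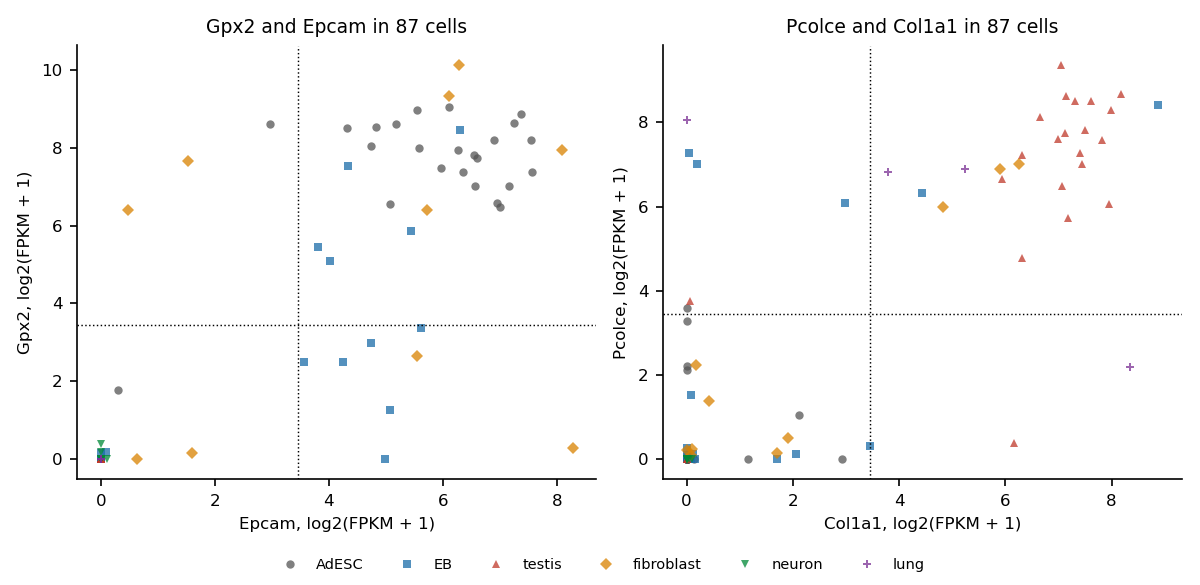
Gpx2 against Epcam (left) and Pcolce against Col1a1 (right) in each of the 87 cells, as log2(FPKM + 1), with symbols for the labelled cell type and dotted lines at 10 FPKM. AdESC cells fill the upper right of the left panel with 22 of 24 cells, and 19 of the 20 RM2-1 testis cells, but 0 of the 4 RM1-1 testis cells, lie in the upper right of the right panel.

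Ramp2 was below every AdESC sample in 6 of 7 differentiated samples, by widely varying amounts. Its means were 0 FPKM in RM1-1 EBs, 0.718 in RM1-1 testis, 1.76 in RM2-1 lung, 6.12 in RM1-1 neurons, 10.8 in RM2-1 testis, 13.6 in MR1-1 fibroblasts (51.5% of it from 1 cell) and 30.9 in MR2-1 EBs, the last within the AdESC range. The difference of -2.32 ± 0.78 on the log2 scale did not pass (SE, limma adjusted p = 0.0558). It passed without the MR2-1 EB sample (-2.74, adjusted p = 0.0166) or without the MR1-1 fibroblasts (-2.55, adjusted p = 0.0422). At 1 FPKM or more were 35 of 63 cells, with a maximum of 138 FPKM in an MR2-1 EB cell. In that sample 8 of 12 cells had Ramp2 at 10 FPKM or more, and 7 of the 8 had Epcam there too. In RM2-1 testis 7 of 20 cells had Ramp2 at 10 FPKM or more, all with Col1a1 and none with Epcam at that level.

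Igfbpl1 was listed at 0 in every cell of 5 differentiated samples. It stood at 1.66 FPKM in RM1-1 testis and at 10.2 in RM1-1 neurons, above all AdESC samples. Within the neurons 5 of 8 cells had 1 FPKM or more and 1 had 52.7, which was 64.3% of the sum. Without that cell the neuron mean was 4.18 FPKM, within the AdESC range of 2.86 to 7.18. In RM1-1 testis 1 cell held 91.6% of the sum. RM1-1 neurons and RM1-1 testis are the 2 differentiated samples richest in neuronal markers, with 9 of 10 and 7 of 10 at 1 FPKM or more, against 0 to 3 in the other 5. AdESC samples had 3 to 4. Cell by cell, of the 8 neurons 2 had Igfbpl1 alone at 10 FPKM or more, 4 had Stmn2, a gene of the neuronal list, alone and 0 had both. Stmn2 was not particular to neurons here: 19 of 24 AdESC cells had it at that level. Of the AdESC cells 5 had both genes there and 2 had Igfbpl1 alone. The difference of -1.94 ± 0.67 on the log2 scale did not pass (SE, limma adjusted p = 0.0606). It passed without the neurons at -2.40 (adjusted p = 0.00492). In that fit only RM1-1 testis, at 1.66 FPKM, was above 0 among differentiated samples, so Igfbpl1 entered only through AdESC samples. That call partly describes the sample left out and is no independent support.

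Rhag was listed at 0 in all 63 differentiated cells. With a group wholly at 0 no fold is given, and the difference did not pass (limma adjusted p = 0.0520), with the lowest AdESC sample, RM1-1, itself at 0.130 FPKM. Rhag entered this fit only through AdESC samples, chiefly the 1 MR2-1 cell described above. The adjusted p was 0.0228 without the RM1-1 AdESC sample and 0.0422 without the RM2-1 one, the 2 lowest AdESC samples, and without the MR2-1 one Rhag fell under the filter, so these values are no support for a call. Of the 5 erythroid markers 0 or 1 had a mean of 1 FPKM or more in each single-cell sample, and Gata1 and Slc4a1 were listed at 0 in all of them.

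**Figure D5:**
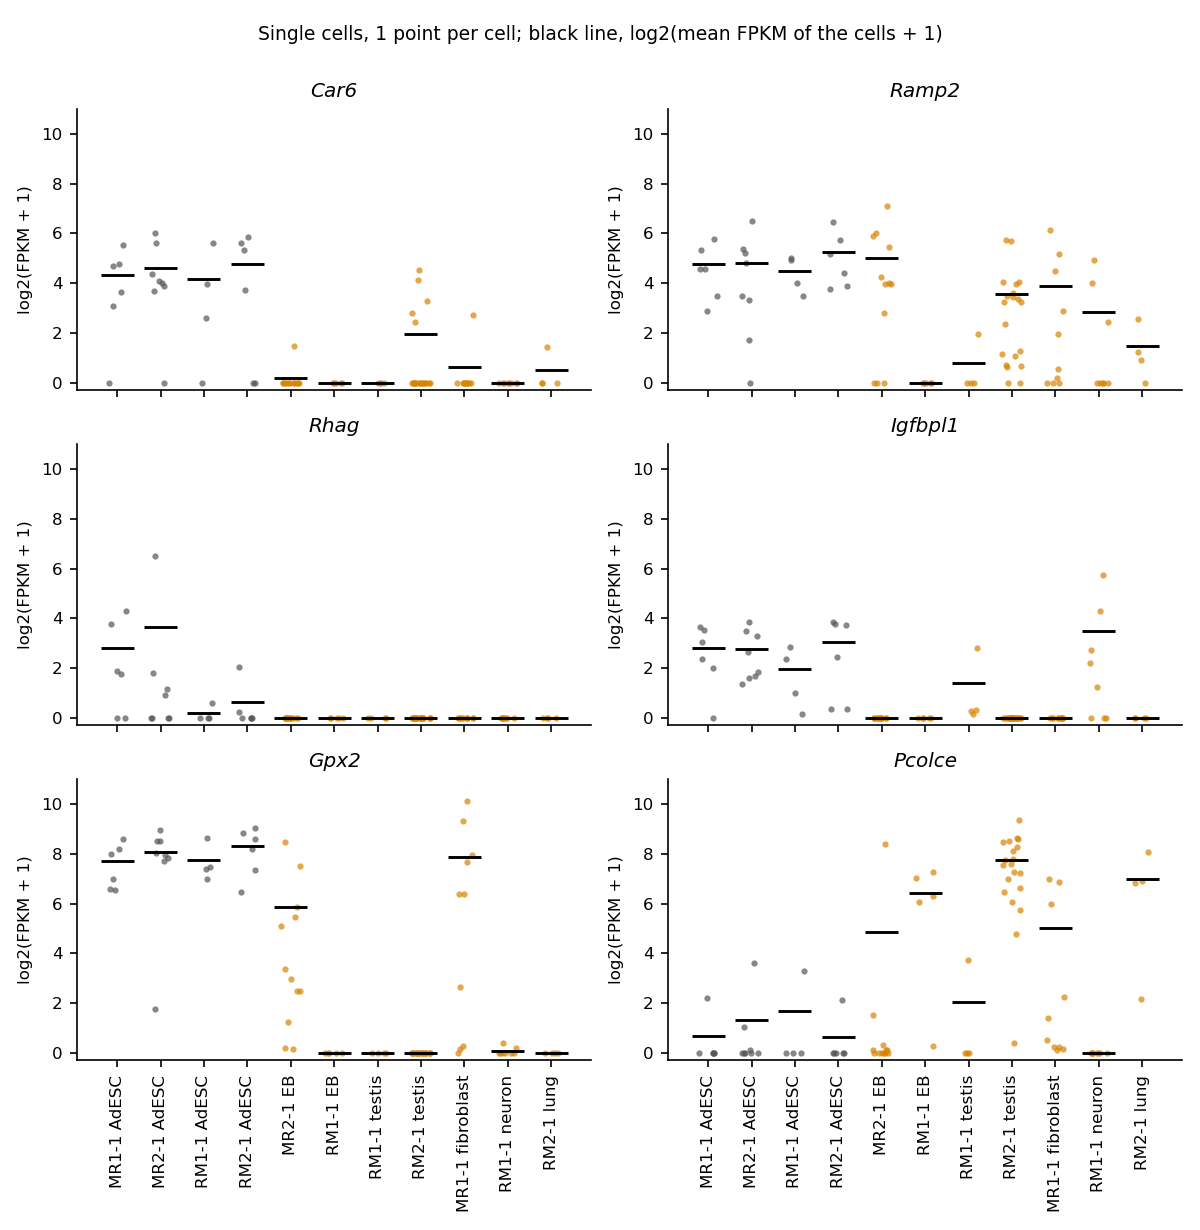
Level of each gene in single cells of the 11 samples as log2(FPKM + 1), 1 point per cell (grey, AdESC; orange, differentiated), with a black line at log2 of the mean FPKM plus 1. Rhag is at 0 in all differentiated cells, Car6 is at 0 in 55 of 63 with the highest in RM2-1 testis, Gpx2 is high in 2 of 7 samples, and Pcolce is low in the 4 AdESC samples and high in most others.

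EBs alone (n = 2 samples) were compared with AdESCs, where 5.55% of genes were called (2.45% higher and 3.1% lower). Car6 fell by 4.37 on the log2 scale (SE 0.64, limma adjusted p = 0.00668) and Igfbpl1, listed at 0 in all 17 EB cells, fell as well (adjusted p = 0.0361). With the cell line as a block the adjusted p values were 0.0782 and 0.206, and the count over all genes dropped from 467 to 25. The other 4 genes did not pass, with limma adjusted p = 0.0523 for Gpx2, 0.0773 for Pcolce, 0.281 for Rhag and 0.306 for Ramp2. The Igfbpl1 call was also lost without any 1 of the 4 AdESC or 2 EB samples (adjusted p from 0.0526 to 0.105). Gpx2 passed without either EB sample (adjusted p = 0.00143 and 0.0373) and without the fibroblasts, neurons or lung cells, and Pcolce passed without either testis sample (0.0111 and 0.0130), samples that enter this fit only through the shared spread. The 2 EB samples were unlike: in RM1-1 EBs all 5 rat-higher genes were listed at 0 in all 5 cells, while MR2-1 EBs kept Ramp2 and part of Gpx2. The Ramp2 difference was 0.17 without RM1-1 EBs and -4.82 without MR2-1 EBs (limma adjusted p = 0.957 and 0.0458). With 1 EB sample left, here and for Gpx2 and Igfbpl1 above, the lone sample is assumed to vary like the other groups.

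Testis somatic cells (n = 2 samples) were compared with AdESCs in the same fit, where 11.1% of genes were called (5.77% higher and 5.37% lower). Car6 fell by 3.49 on the log2 scale (SE 0.64, limma adjusted p = 0.0108) and Gpx2, listed at 0 in all 24 testis cells, fell as well (adjusted p = 0.00573). With the cell line as a block the Car6 difference did not pass (adjusted p = 0.0740), and 182 genes passed in place of 938. Gpx2 did not pass without RM1-1 testis (adjusted p = 0.0544) or without RM2-1 testis (0.0573). Pcolce stood at 218 FPKM in RM2-1 and 3.11 in RM1-1 testis, and did not pass with both samples (3.82 ± 1.30 on the log2 scale, SE, adjusted p = 0.0931). Both testis samples had few testis markers at 1 FPKM or more. RM1-1 testis had 2 of 7 Sertoli and 1 of 6 Leydig markers, and RM2-1 testis had 3 of 7 and 2 of 6, with 17 of 17 fibroblast markers. Without RM1-1 testis the difference was 6.69 for Pcolce and -2.64 for Igfbpl1. Each of these values rests on 1 testis sample, assumed to vary like the other groups.

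Relatives of the 6 genes in their pathways were taken from lists chosen with earlier results of these data known. Counts below leave out the 6 genes, and each called gene named kept its sign under upper-quartile scaling. The filter used the mean over all samples of a fit. A gene under 1 FPKM in 1 group was therefore tested only through other samples, and a call on it partly describes that choice. Of 12 other carbonic anhydrases measured, 4 passed the bulk filter. Between rat and mouse ESCs, 1 of the 4 was higher and 2 were lower in rat (14.1% and 12.6% over all genes), with a list median of -0.41 on the log2 scale against 0.08 for all genes. Car4, a membrane-bound member, was higher in rat (12.5 ± 14.0 against 0.0683 ± 0.0966 FPKM, SD, n = 2 each, limma adjusted p = 0.0459), and Car13, a cytosolic one, was lower (2.62 ± 1.12 against 11.1 ± 6.84, adjusted p = 0.0295). Car8 was listed at 0 in both rat lines and had a mean of 2.70 ± 1.99 FPKM in mouse. Under upper-quartile scaling 0 were higher and 2 lower. Of 6 tested between differentiated and AdESC samples 0 were called (7.37% higher and 8.57% lower over all genes). An absent call does not show that a gene did not fall. The Car6 call there partly describes its entry through AdESC samples, so no contrast with the family is drawn.

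Of 10 other adrenomedullin and CGRP (calcitonin gene-related peptide) signalling genes measured, 6 were tested in bulk. In rat ESCs 2 of the 6 were higher and 1 lower than in mouse (14.1% and 12.6% over all genes), with a median of 0.52 against 0.08 for all genes. Ramp1, the related partner that makes the CGRP receptor, was likewise higher in rat: 7.01 ± 4.61 FPKM in rat and 0.278 ± 0.227 in mouse (SD, n = 2 each), and 0.686 ± 0.340 in AdESCs (n = 4), lower than in rat by limma (adjusted p = 0.00874). Adm2, a peptide ligand of these receptors, was higher in rat (8.70 ± 3.26 against 2.05 ± 1.26 FPKM, adjusted p = 0.0218), and Calca, which encodes CGRP, was lower (0.350 ± 0.411 against 4.20 ± 1.53, adjusted p = 0.0180). In differentiated samples Adm, which encodes adrenomedullin, rose from 0.882 ± 0.919 (n = 4) to 13.2 ± 12.0 FPKM (SD, n = 7, limma adjusted p = 0.0189) and Adm2 fell from 5.59 ± 5.13 to 0.620 ± 0.880 (adjusted p = 0.0359). The list's median there was 1.10 against 0.02 for all genes, with 6 genes tested. Over all genes 7.37% were called higher and 8.57% lower. Without the lung, RM1-1 testis and fibroblast samples Adm still passed (adjusted p = 0.00120) and Adm2 did not (0.0736). Adm was under the filter in AdESC samples and Adm2 in differentiated ones, so each was tested only through the group where it was high. These calls partly describe that choice.

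Of 11 other Rh family and red cell membrane genes measured, 3 passed the bulk filter and 0 were called in any bulk contrast, with a rat minus mouse median of 0.22 against 0.08 for all genes. Gypc, which encodes a glycophorin of the red cell membrane found in many tissues, was the 1 gene tested in single cells. It was listed at 0 in AdESC samples and had a mean of 19.8 ± 4.00 FPKM in testis samples (SD, n = 2, limma adjusted p = 0.00435). It passed the filter only through differentiated samples, so this call describes that choice.

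Of 16 other IGF binding and signalling genes measured, 10 were tested in bulk, of which 2 were higher and 3 lower in rat, against 14.1% and 12.6% over all genes (median -0.53 against 0.08 for all genes; under upper-quartile scaling 1 and 5). Igfbp4, which encodes an IGF binding protein, was also higher in rat, with 102 ± 1.61 FPKM in rat, 5.54 ± 1.00 in mouse (n = 2 each) and 52.2 ± 20.6 in AdESCs (SD, n = 4, limma adjusted p = 0.00268 against mouse). Igfbp7 and the serine protease gene Htra1 were lower in rat, at 0.0159 ± 0.0225 and 0.946 ± 1.09 FPKM against 33.2 ± 18.0 and 25.5 ± 5.90 in mouse. Htra1 stood at 24.2 ± 7.29 FPKM in AdESCs (n = 4), higher than in rat (limma adjusted p = 0.000198). Of 13 tested in single cells, the growth factor gene Igf1 and the adaptor gene Irs1 rose in differentiated samples and the receptor gene Igf2r fell. Over all genes 7.37% were called higher and 8.57% lower. The list's median was 1.36 against 0.02. Igf1 rose from 0.115 ± 0.230 to 9.25 ± 8.27 FPKM (SD, limma adjusted p = 0.0267). Under upper-quartile scaling 2 were higher and 0 lower. Without the lung, RM1-1 testis and fibroblast samples Igf1 still passed (adjusted p = 0.00940), and Irs1 (0.0942) and Igf2r (0.0976) did not. Igf1 and Irs1 had AdESC means of 0.115 and 0 FPKM, under the filter, so they were tested only through differentiated samples. Their calls partly describe that choice.

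Of 19 other glutathione peroxidase and antioxidant genes measured, 18 were tested in bulk. In rat 2 were higher and 5 lower than in mouse, against 14.1% and 12.6% over all genes. The median was 0.10 against 0.08 for all genes. Under upper-quartile scaling the counts were 2 and 7, with a median of -0.19. Higher in rat were Gclm, a subunit of the enzyme that starts glutathione synthesis (62.5 ± 21.2 against 15.5 ± 1.13 FPKM, SD, n = 2 each, limma adjusted p = 0.0183), and the quinone reductase gene Nqo1 (78.7 ± 14.0 against 24.8 ± 7.42, adjusted p = 0.0324). The mitochondrial superoxide dismutase gene Sod2 was lower in rat (17.7 ± 0.803 against 54.9 ± 4.16) and in AdESCs (23.8 ± 0.696, n = 4). In differentiated samples 3 of 18 rose and 2 fell (7.37% and 8.57% over all genes), with a median of 0.11 against 0.02. The 3 that rose were glutathione peroxidases: Gpx3 rose from 2.02 ± 1.77 to 99.0 ± 118.5 FPKM and Gpx8 from 7.14 ± 2.16 to 113 ± 101.004 (SD, n = 4 and 7, limma adjusted p = 0.0117 and 0.00137). Gpx4, named although it lies outside the rule of 3 genes a list, rose from 124 ± 23.5 to 263 ± 89.9 FPKM (adjusted p = 0.0222). These 3 and Sod1 also passed without the lung, RM1-1 testis and fibroblast samples. The superoxide dismutase gene Sod1 fell from 2778 ± 361 to 720.3 ± 272 FPKM.

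Procollagen processing genes that were called lay in the direction of Pcolce between the parents, between AdESCs and rat and in differentiated samples. Of 20 others measured 16 were tested, and 10 were lower in rat than in mouse ESCs with 0 higher (12.6% and 14.1% over all genes, median -2.90 against 0.08 for all genes). AdESCs had 7 higher than rat and 0 lower (5.79% and 3.91% over all genes). Against mouse 0 were higher and 1 was lower (2.71% and 1.18%), the lysyl hydroxylase gene Plod2 (5.68 ± 2.15 against 26.9 ± 6.32 FPKM, SD, limma adjusted p = 0.0204). Col1a1, Col1a2 and Col3a1, which encode fibrillar collagen chains, had mean levels of 0.0580, 0 and 0 FPKM in rat ESCs. Means were 365 ± 390, 285 ± 322 and 250.4 ± 293 in mouse ESCs (SD, n = 2). In AdESCs they were 50.7 ± 31.3, 33.6 ± 18.7 and 17.0 ± 8.51 (SD, n = 4), and no call was made against mouse for these genes. Col1a1 was 641 FPKM in F145 and 89.7 in F146, beside 84.3 in RM2-1 AdESCs. Of the list's genes 6 are also fibroblast markers. In differentiated samples 8 of 16 rose and 0 fell (7.37% and 8.57% over all genes, median 2.82 against 0.02), with 7 and 0 under upper-quartile scaling and 6 and 0 without the lung, RM1-1 testis and fibroblast samples. Among them were Plod2 (1.87 ± 1.18 to 46.2 ± 34.7 FPKM, limma adjusted p = 0.00361) and the collagen chaperone gene Serpinh1 (0.993 ± 0.728 to 32.4 ± 34.1, adjusted p = 0.00354). Serpinh1, Bmp1, Col1a2, Col3a1, Col5a2 and Loxl1 of this list had AdESC means under the filter, so they were tested only through differentiated samples. Calls on them partly describe that choice. Fibroblast markers at 1 FPKM or more numbered 2 to 4 of 17 in AdESC and 4 to 17 in differentiated samples, and their part in these counts was not tested.

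Genes with the most similar pattern were sought by Pearson's r of log2(FPKM + 1), a description over points that share libraries. Over the 11 single-cell samples, Car6 was most like Klf2, a naive pluripotency factor (r = 0.988), and Rrn3, a factor of ribosomal RNA transcription (0.985). Gpx2 was most like Fcrla (0.988) and Cdh1, the gene of E-cadherin (0.986), and Pcolce was most like Cnn1, which encodes a calponin of smooth muscle (0.978), and Hebp2 (0.969). Ramp2 was most like Trim26 (0.936) and Tsr3 (0.920), Igfbpl1 most like Slc38a3 (0.955) and Pdcl (0.918), and Rhag most like Skap1 (0.989) and Olfr350 (0.987). Rhag was listed at 0 in all differentiated samples, and 1 cell held 95% of its MR2-1 AdESC sum, so its r rests on few values. Over the 8 bulk libraries the nearest were Nenf and Stau2 for Car6, Tbc1d20 and Wfdc6a for Ramp2, and Dusp22 and Adad1 for Rhag. They were Arf1 and Pde11a for Igfbpl1, Lbr for Gpx2, and Tspo and Grik3 for Pcolce, with r between 0.985 and 0.993 for each gene named. No gene was among the nearest in both tables for the same member. Fcrla is itself 1 of the 7 genes listed at 0 in both mouse lines, with an AdESC level 1.02 times the parental mean.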

How the data were processed

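RNA was extracted with Trizol and sequenced from TruSeq libraries on an Illumina HiSeq instrument, per the labels' protocols. The authors deposited FPKM values, 1 per gene and library or cell. The tools named, per the submitters' processing notes, are Cufflinks 2.1.1 (whose output unit was assumed, and which the values do not contradict), TopHat2 2.0.10 and FastQC 0.10.1; rn5 and mm10 are the builds. The sources used here do not say how the reads of both genomes were combined for AdESCs. Read depth is unknown, so no counting interval is given, and the number of lines and cells limits the precision.

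Groups were tested with limma 3.58.1 (R 4.3.3, trend in the prior variance) on log2(FPKM + 1), which understates changes of low genes, keeping genes whose mean in the fit reached 1 FPKM. The Benjamini-Hochberg adjustment covered every tested gene (8794 bulk, 8421 single-cell), with a threshold of 0.05. Bulk groups were mouse ESC, rat ESC and AdESC, with MR and RM apart for their comparison. Cells are not replicates, so the mean FPKM of the cells of a sample entered the fits. Tests were made within a table only. The fits were tested on simulated data.

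The 6 genes and all lists were chosen with earlier results of these data known. Named besides them were, of 6 pathway lists, at most 3 called genes per list and comparison by size of difference, and the 2 genes with the most similar pattern per table, 1 of which is not reported here. Of 10 marker lists those that touch a result are given. The same cell line underlies AdESC, EB and testis samples, which pairs them by design. The line was added as a block in an alternative fit. Other alternatives were a pseudocount of 0.1, no filter, upper-quartile scaling, the mean of log2 values over cells, and leaving out each library or sample, plus 3 exclusions chosen after seeing the data. Coordinates came from GENCODE M21 by gene symbol. Sequences of the genes were not used here.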

Additional observations from a re-analysis of the deposited data

Results flagged for a closer look

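A sample was looked for that stood apart by its gap relative to the range, both in FPKM. This was done in 18 groups of 4 or 7 samples (each gene in bulk AdESC lines, single-cell AdESC samples and differentiated samples). Among the 7 differentiated samples Car6 was listed at 0 in 3, Gpx2 in 4 and Igfbpl1 in 5. No chance rate is therefore given, and the picks carry no test. The rule picked 4. Car6 in RM2-1 testis, at a mean of 2.87 FPKM, stood above the other 6 differentiated samples, whose highest was 0.553. Igfbpl1 in RM1-1 neurons, at 10.2 FPKM (4.18 without its highest cell), stood above the other 6, whose highest was 1.66. Gpx2 in MR1-1 fibroblasts, at 238 FPKM, stood above the other 6, whose highest was 58.2. Pcolce in the bulk library of MR1-1, at 5.76 FPKM, stood below the other 3 AdESC lines, which had 8.73 to 9.00.

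Ramp2 moved in opposite directions between EBs and AdESCs of the same line, with a difference of 4.02 FPKM in MR2-1 and of -21.5 FPKM in RM1-1. The rise in MR2-1 rests on 1 EB cell at 138 FPKM: without it the EB mean was 21.2 FPKM, below the AdESC mean of 26.9, and the EB median over cells (14.9) was below the AdESC median (18.7). That the lines differ was not tested, since each has 1 EB sample.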

How the results depend on the processing

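Read depth is unknown, groups hold 2 to 7 samples and the authors' joining of the 2 genomes cannot be varied, and these limit every value. Upper-quartile scaling moved the median log2 difference of all genes from -0.11 to 0.20 (AdESC against rat) and from 0.08 to -0.19 (rat against mouse).

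Leaving out 1 library at a time, genes called ran from 1059 to 2435 (rat against mouse, 2343 with all), 151 to 344 (AdESC against mouse, 342) and 223 to 1063 (AdESC against rat, 853). In cells they ran from 791 to 1367 (differentiated, 1343), 222 to 676 (EB, 467) and 517 to 1133 (testis, 938), with the lowest counts without an AdESC sample. With the cell line as a replicate block 25 genes were called for EBs and 182 for testis. With the line number as a block between RM and MR, where the number pairs nothing by the labels, 10 were called in place of 0. The block changed the 2 calls for EBs and the Car6 call for testis named above and no other call on the 6 genes.

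The AdESC fraction of the parental mean was moved by the geometric mean (0.937 for Car6, 3.81 for Ramp2, 2.36 for Igfbpl1, 1.04 for Gpx2, 1.45 for Pcolce), by upper-quartile scaling for Gpx2 (0.596) and by leaving out a rat line for Igfbpl1 (0.287 to 0.756).

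For differentiated against AdESC samples, Car6 and Gpx2 kept sign and call under all 19 alternatives. Car6 entered the main fit only through AdESC samples. Without 1 sample in turn Ramp2 ran from -2.74 to -1.90, Rhag from -2.37 to -1.49, Igfbpl1 from -2.40 to -1.81 and Pcolce from 3.14 to 4.43. Averaging log2 values over cells gave calls for Ramp2 (-2.75), Rhag (-0.94) and Igfbpl1 (-1.81). A pseudocount of 0.1 gave calls for Rhag (-4.17) and Igfbpl1 (-4.18). Rhag fell under the filter without the MR2-1 AdESC sample. The Pcolce call was lost with a pseudocount of 0.1 (3.99), with no filter (3.65), with log2 averages (2.72), without 1 MR2-1 EB cell (2.99) and without the fibroblast, lung and RM1-1 testis samples (3.69). The cause was not tested. Values for Rhag are set against a group wholly at 0, so they depend on the pseudocount and measure no fold.

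Signs reversed for uncalled RM minus MR differences: Car6 without RM2-1 (-0.087), Ramp2 without MR2-1 (0.0057) or RM1-1 (0.13), Rhag without MR2-1 (0.15) or RM1-1 (0.25) and Pcolce without MR1-1 (-0.038). Leaving out 1 library in turn, these differences ran from -0.087 to 0.68 for Car6, -0.68 to 0.13 for Ramp2, -0.91 to 0.25 for Rhag and -0.038 to 0.53 for Pcolce. Ramp2 in EBs reversed without RM1-1 EBs, with a range without 1 sample from -4.82 to 0.17.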
